A study of Mus musculus with 6 samples.

Results

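Fatty acid uptake and acyl-CoA activation genes were compared between skin tumours of wild-type mice (WT) and of mice that lack E-FABP (EKO), the fatty acid binding protein of the epidermis. The set holds 10 genes by name: Cd36, the fatty acid transport protein genes Slc27a1, Slc27a2, Slc27a3, Slc27a4 and Slc27a6, and the long-chain acyl-CoA synthetase genes Acsl1, Acsl3, Acsl4 and Acsl5. A gene was measured where a probe set of the array carried its symbol and no other, and the probe set brightest on average over the 6 arrays stood for it. By this rule 8 of the 10 genes were measured among 18193 genes in all, and Acsl1 and Slc27a6 were not analysed here. Mice of both genotypes had received the tumour initiator DMBA and the phorbol ester TPA, which promotes tumour growth, for 5 months. Tumours were digested to single cells, and RNA was taken from the cells of 3 mice per genotype, 1 Affymetrix 3' array per mouse. The WT tumours carry intact E-FABP and the EKO tumours lack it. The sources used here do not give the strain, age or sex of the mice or the allele behind the deficiency. All values are log2 values after RMA normalization, and a difference is always EKO minus WT, so that a difference of 1 is a doubling. Where 3 values are listed for a group, they are those of replicates 1, 2 and 3 in this order.

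Free fatty acids reach a cell from lipoproteins and albumin and cross its membrane with the help of CD36, a scavenger receptor also called fatty acid translocase, and of the fatty acid transport proteins. Inside the cell they are bound by carriers such as E-FABP, the product of Fabp5. They can be used for oxidation, membrane lipids or storage only after an acyl-CoA synthetase has joined them to coenzyme A. The transport proteins of the Slc27a family have such synthetase activity themselves, and the Acsl enzymes are the main synthetases for long chains. In skin these steps supply the barrier lipids of the epidermis and the sebum of the sebaceous gland. E-FABP is also known to bring fatty acids to the nuclear receptor PPAR beta/delta, and Cd36 is a known target gene of PPARs.

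Because of this link, the 250 bases before the start of the measured members were searched for AGGTCA, the hexamer that PPARs and related nuclear receptors recognise, on both strands. RefSeq's table for GRCm38.p6 held 10 such windows for the 8 genes, 3 of them for Slc27a1. The hexamer stood in 2 of the 10, those of Cd36 and Slc27a2, against 14.02% of all 32851 windows of this length. The full direct repeat AGGTCANAGGTCA, of which the hexamer is a part, stood in 0 of the 10 and in 0.0335% of all windows. GGGCGG, the GC box of many housekeeping promoters, stood in 8 of the 10 and in 32.74% of all. The windows of Cd36 and Slc27a2 are shown because they hold the hexamer, and those of Slc27a3 and Acsl5 because these genes had, with Cd36, the smallest p of the members. They run 5′ to 3′ on the gene's strand, and capitals mark the hexamer, here on the opposite strand and so read as TGACCT.
Cd36, chr5:17835897-17836146, minus strand: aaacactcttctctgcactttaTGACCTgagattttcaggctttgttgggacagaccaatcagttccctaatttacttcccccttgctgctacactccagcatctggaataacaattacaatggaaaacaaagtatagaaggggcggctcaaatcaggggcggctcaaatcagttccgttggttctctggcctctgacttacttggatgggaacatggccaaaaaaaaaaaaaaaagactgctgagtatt
Slc27a2, chr2:126552774-126553023, plus strand: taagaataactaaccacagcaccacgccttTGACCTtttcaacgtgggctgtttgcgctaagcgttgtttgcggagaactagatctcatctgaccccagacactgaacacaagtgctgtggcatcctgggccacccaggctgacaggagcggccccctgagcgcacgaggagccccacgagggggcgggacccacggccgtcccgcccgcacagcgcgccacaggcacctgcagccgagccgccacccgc
Slc27a3, chr3:90389939-90390188, minus strand: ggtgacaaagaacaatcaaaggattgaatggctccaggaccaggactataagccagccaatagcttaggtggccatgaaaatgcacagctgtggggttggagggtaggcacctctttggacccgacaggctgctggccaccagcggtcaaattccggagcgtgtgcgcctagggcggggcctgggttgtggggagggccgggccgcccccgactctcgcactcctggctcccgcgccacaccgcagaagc
Acsl5, chr19:55253119-55253368, plus strand: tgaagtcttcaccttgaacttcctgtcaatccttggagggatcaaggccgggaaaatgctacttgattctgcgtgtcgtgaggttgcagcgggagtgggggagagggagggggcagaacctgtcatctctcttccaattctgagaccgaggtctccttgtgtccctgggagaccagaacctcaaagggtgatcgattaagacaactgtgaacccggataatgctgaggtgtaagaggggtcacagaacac
A match describes these letters only, and binding was not measured.

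Fabp5 matched the labels in all 6 tumours. Its values lay between 14.80 and 14.94 in the WT tumours and between 7.98 and 8.30 in the EKO tumours. These EKO values still lay at percentiles 79.5 to 82.2 of their arrays. A second Fabp5 probe set ran from 14.21 to 14.38 in WT and from 5.38 to 5.80 in EKO tumours. Fabp5 was the 1 gene of 18193 that passed the limma test at an adjusted p of 0.05, and 0.0055% of the genes passed in all. The array medians lay between 5.41 and 5.43, and arrays correlated across probe sets with r from 0.987 to 0.994. The sample labels call the cells keratinocytes, and markers of these cells were high in every array. The mean over 8 basal keratinocyte markers ran from 11.32 to 11.53 in WT and from 11.28 to 11.60 in EKO tumours, and that over 8 suprabasal markers from 13.36 to 13.69 and from 13.39 to 13.61.

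The question put to the measured members was whether genes of fatty acid entry and activation differ in tumours that lack the carrier. Of the 8 genes, 7 had a lower mean in EKO tumours and 1, Acsl3, a higher mean, while 50% of all genes had a lower mean. The median difference of the members was -0.19, and that of all genes was 0.00014. Cd36 had the largest difference, a 1.92-fold lower mean level in EKO tumours, followed by Slc27a3 (1.42-fold) and Acsl5 (1.37-fold). These 3 genes had an unadjusted limma p under 0.05, all on the lower side, against 3.7% of all genes on that side and 7.13% on either side. After adjustment over all genes 0 of the 8 passed (limma, smallest adjusted p = 0.641). Of the members, 2 had EKO values all below the WT values, Slc27a1 and Acsl5, and 6.19% of all genes did. The genes were chosen with earlier results for some of them known, so these shares describe the set and are no test of it.

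Cd36, the membrane receptor of the set, read 10.72, 9.82 and 10.40 in the WT tumours and 8.91, 10.01 and 9.20 in the EKO tumours. EKO replicates 1 and 3 lay below all WT tumours, and EKO replicate 2 lay above WT replicate 2, so the groups overlapped. The mean was 10.31 ± 0.453 in WT and 9.38 ± 0.572 in EKO tumours (SD, n = 3 each). The difference was -0.94 (SE 0.325, 95% interval -1.70 to -0.17, limma adjusted p = 0.641). Its other probe sets had the same order of EKO tumours, replicate 2 highest and replicate 1 lowest, with differences of -0.73 and -0.37. Cd36 also varied more within the groups than most genes, since 96.9% of all genes had a smaller residual SD.

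**Figure D1:**
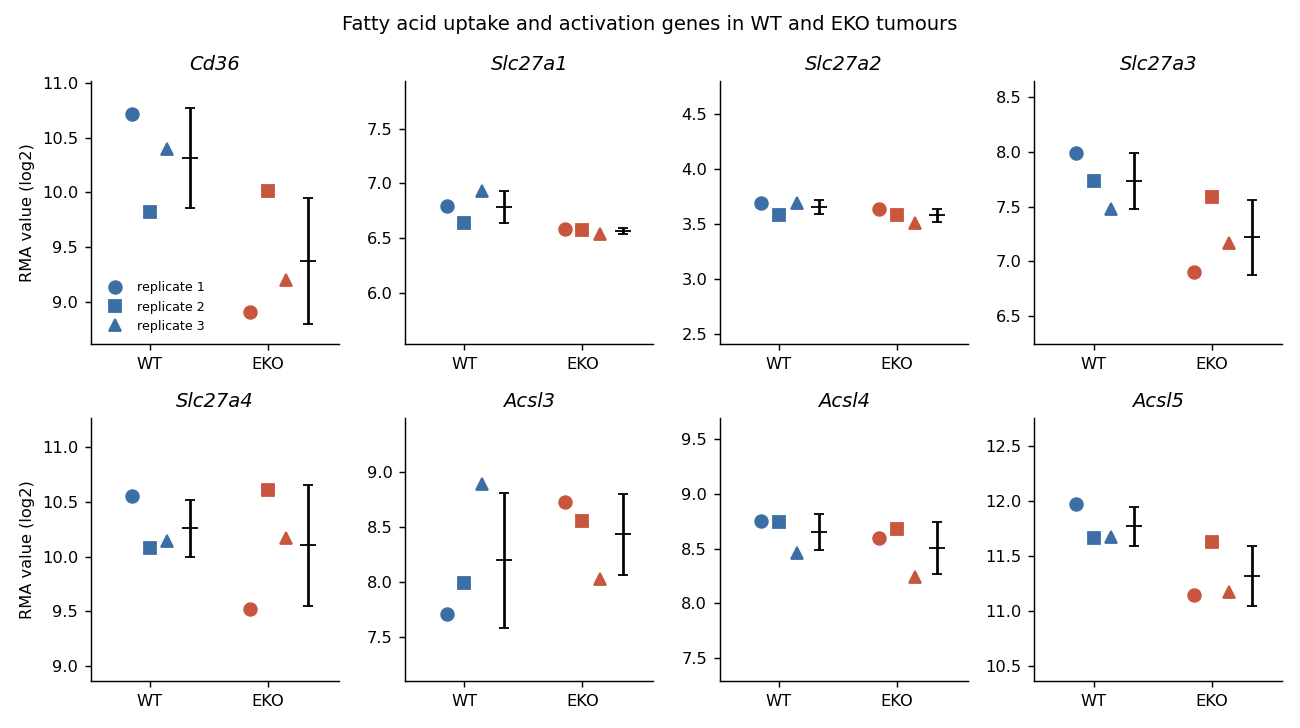
RMA values (log2) of the 8 measured genes in each tumour, WT in blue and EKO in red, with the marker shape giving the replicate number and the black bars the mean ± SD of 3 tumours. Every panel spans the same height on the log2 scale, and the groups stand apart without overlap in Slc27a1 and Acsl5 only.

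Among the transport proteins, Slc27a3, a member with synthetase activity, read 7.99, 7.73 and 7.48 in the WT tumours and 6.91, 7.59 and 7.17 in the EKO tumours. As for Cd36, EKO replicates 1 and 3 lay below all WT tumours and EKO replicate 2 lay among them. The difference was -0.51 (SE 0.199, 95% interval -0.98 to -0.04, limma adjusted p = 0.668).

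Slc27a1, the transport protein of muscle and fat, read 6.79, 6.64 and 6.93 in WT and 6.59, 6.58 and 6.54 in the EKO tumours. The EKO tumours were nearly equal (SD 0.0271), all of them just under the lowest WT tumour. The difference was small, -0.22 (95% interval -0.45 to 0.01, limma adjusted p = 0.704), and a second probe set of Slc27a1 gave -0.06 with overlapping groups.

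Slc27a4, the transport protein whose loss in mice impairs the skin barrier, read 10.55, 10.08 and 10.14 in WT and 9.52, 10.61 and 10.17 in the EKO tumours. The EKO tumours held both the highest and the lowest of the 6 values. The difference was -0.16 (SE 0.272, 95% interval -0.80 to 0.49, limma adjusted p = 0.92), and it turned to 0.14 without EKO replicate 1. Slc27a2, a very-long-chain synthetase of liver and kidney, ran from 3.51 to 3.70 over the 6 arrays. It lay below the lower quartile of every array (3.90 to 3.97), where RMA narrows differences, and whether its signal, with a difference of -0.08, was above background is not known.

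Of the synthetases, Acsl5, an enzyme of mitochondria and endoplasmic reticulum known from the intestine, read 11.98, 11.66 and 11.67 in the WT tumours and 11.15, 11.63 and 11.17 in the EKO tumours. All EKO tumours lay below all WT tumours, but EKO replicate 2 only just below the lowest WT tumour. The mean was 11.77 ± 0.178 in WT and 11.32 ± 0.274 in EKO tumours (SD, n = 3 each), a difference of -0.45 (SE 0.160, 95% interval -0.83 to -0.08, limma adjusted p = 0.648).

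Acsl4, which prefers arachidonic acid and is known for its part in ferroptosis, read 8.75, 8.74 and 8.46 in WT and 8.60, 8.68 and 8.24 in the EKO tumours, with overlapping groups and a difference of -0.14 (95% interval -0.49 to 0.20, limma adjusted p = 0.856). It was -0.01 without EKO replicate 3, and -0.24 without WT replicate 3, -0.23 without EKO replicate 2 and -0.09 without WT replicate 1. Its probe sets differed in size. A dimmer probe set of Acsl4 read 7.93, 7.72 and 7.48 in WT and 7.15, 7.39 and 7.33 in EKO tumours, without overlap. Its difference was -0.42 (SE 0.133, limma adjusted p = 0.632 over all probe sets), and the dimmest gave -0.16 with overlapping groups.

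Acsl3, an enzyme of the endoplasmic reticulum and of lipid droplets, was the member with the higher mean in EKO tumours. It read 7.71, 7.99 and 8.89 in WT and 8.73, 8.56 and 8.02 in the EKO tumours, so that the WT tumours held both extremes. The difference was 0.24 (SE 0.320, 95% interval -0.52 to 0.99, limma adjusted p = 0.893), and it was -0.00597 without WT replicate 1. Its other probe sets gave 0.28 and 0.15, with the same order of EKO tumours. The one at 0.15 lay below the lower quartile in 3 of the 6 arrays, where RMA narrows differences. Its spread within groups was close to that of Cd36, with 96.8% of all genes having a smaller residual SD.

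**Figure D2:**
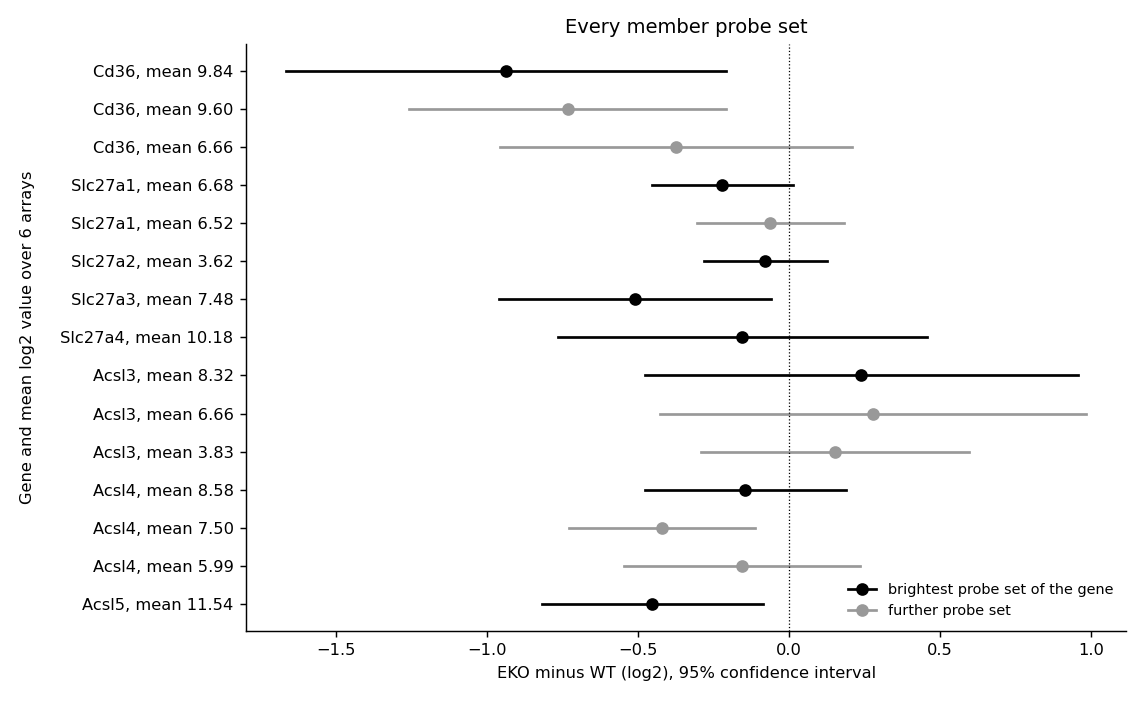
EKO minus WT difference (log2) of each of the 15 probe sets of the measured genes, with its 95% limma interval from the fit over all probe sets. Black points are the brightest probe set of a gene and grey points the others, and the probe sets of a gene share the side of 0 on which they lie while differing in size.

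In all, 15 probe sets carried the symbol of a member. Of these, 12 lay on the lower side and the 3 of Acsl3 on the higher side. Over the 45037 probe sets tested, 6.35% had all EKO values below all WT values, and 3 of the 15 did, 1 each of Slc27a1, Acsl4 and Acsl5. An unadjusted limma p under 0.05 was reached by 5 of the 15 on the lower side, among them both brighter probe sets of Cd36, against 3.85% of all probe sets on that side. After adjustment over all probe sets 0 of the 15 passed, and 0.00444% of all did.

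The members did not all follow 1 order across the tumours. EKO replicate 1 held the lowest of the 6 values for 4 of the 8 genes, Cd36, Slc27a3, Slc27a4 and Acsl5, and EKO replicate 3 for 3 others. EKO replicate 2 held the lowest value for 0 genes. Acsl3 was lowest in WT replicate 1. WT replicate 1 held the highest value for 5 of the 8. The median deviation of the members from their mean over the 6 arrays was -0.24 in EKO replicate 1, 0.11 in EKO replicate 2 and -0.30 in EKO replicate 3, against 0.27, -0.03 and 0.10 in the WT tumours. EKO replicate 2 therefore lay within the WT range. Without it the number of genes past the threshold rose from 1 to 42 of 18193, and 0 of the 8 members were among them. Cd36 then had a difference of -1.26 and Acsl5 of -0.61, each with a limma adjusted p of 0.216 (range over the alternatives 0.216 to 0.998 for both). Some other alternatives gave smaller differences. Cd36 was at -0.71 without EKO replicate 1, -0.73 without WT replicate 1 and -0.68 as a mean over its probe sets. Acsl5 was at -0.37 without EKO replicate 1 and -0.35 without WT replicate 1. Slc27a3 was at -0.35 without EKO replicate 1 and -0.69 without EKO replicate 2.

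**Figure D3:**
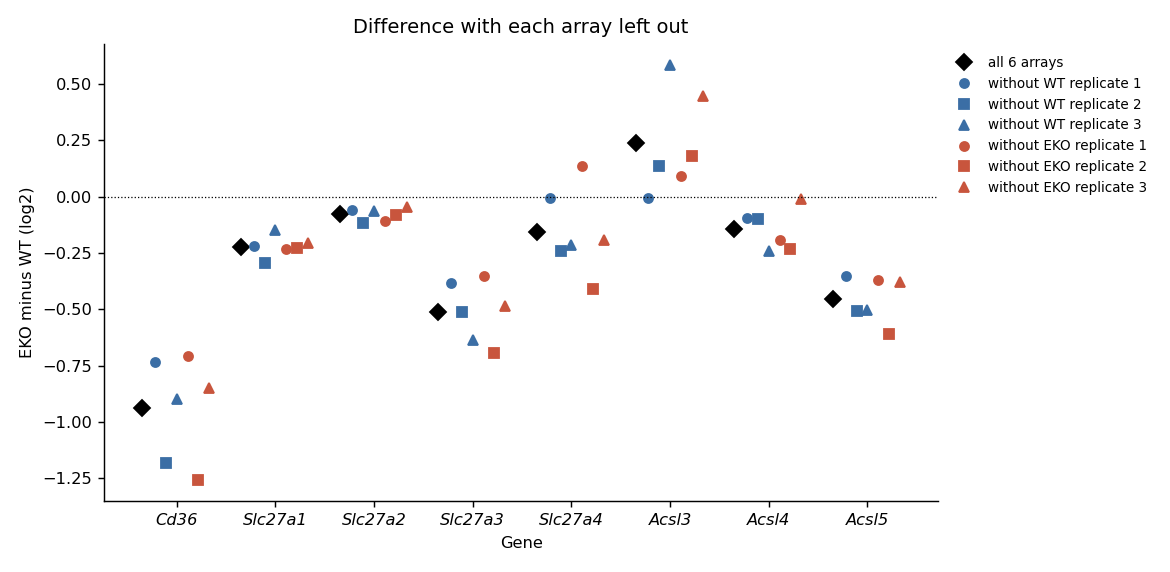
EKO minus WT difference (log2) of each measured gene with all 6 arrays (black) and with each WT (blue) or EKO (red) tumour left out. Slc27a4 crosses 0 without EKO replicate 1 and Acsl3 without WT replicate 1, and the other members stay below 0 in every case.

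Several cell types of a digested skin tumour express these genes, and with RNA from a mixture of cells, fewer cells of a type and less RNA per cell cannot be told apart. Sebocyte markers followed an order close to that of Cd36, Slc27a3 and Acsl5, the 3 members with the smallest p, but not to that of all members. Of 11 listed markers 7 were measured, and all 7 had a lower mean in EKO tumours, against 50% of all genes. The smallest of these differences was -0.02, for Mogat1, which lay below the lower quartile in 2 of the 6 arrays. By limma 0 passed over all genes, and 1 had an unadjusted p under 0.05, against 3.7% of all genes on the lower side. The mean log2 value over the 7 markers was 9.68, 9.27 and 9.48 in the WT tumours and 8.55, 9.61 and 9.004 in the EKO tumours. As in the 3 member genes, EKO replicate 1 was lowest, EKO replicate 3 next, and WT replicate 1 highest. EKO replicate 2 lay within the WT range in the sebocyte list, in Cd36 and in Slc27a3, and just below it in Acsl5. Krt79, a keratin of the sebaceous duct, read 13.59, 13.57 and 13.52 in WT and 12.38, 13.56 and 12.78 in EKO tumours (difference -0.65, limma adjusted p = 0.698). Cidea, a lipid droplet protein of sebocytes, had a difference of -0.67. A single tumour moved both by over 1.5 times. Without EKO replicate 1 the differences were -0.38 for Krt79 and -0.38 for Cidea, and without EKO replicate 2 they were -0.98 and -1.01. Krt79 and Cidea were chosen after their values were seen. The part of sebocytes in the member values was not tested.

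**Figure D4:**
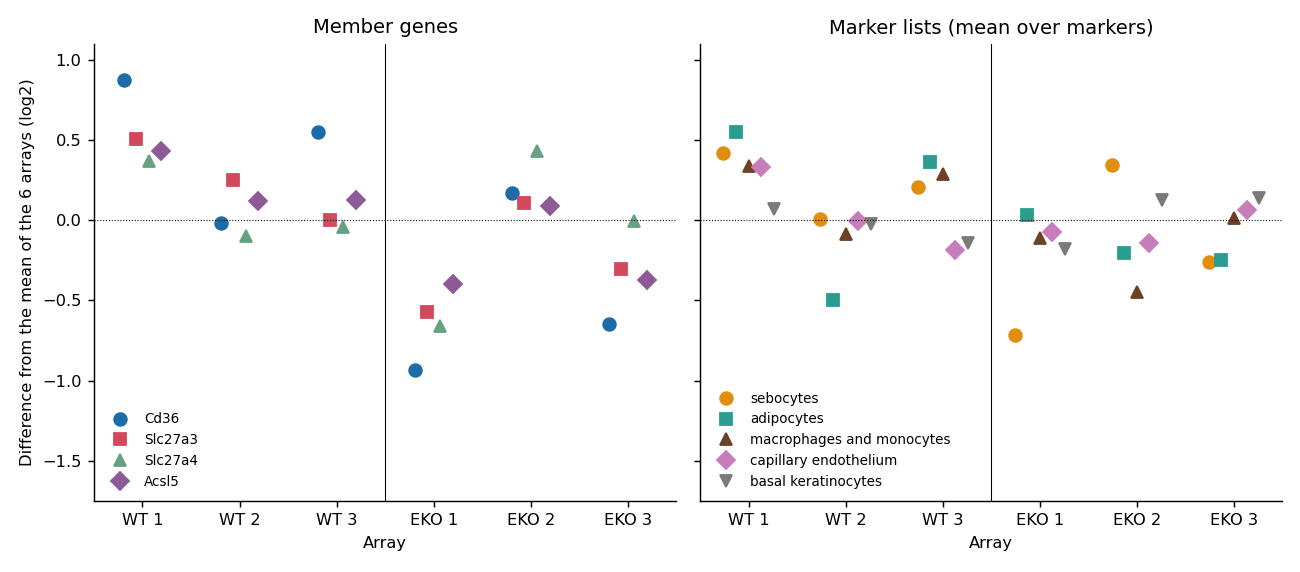
Difference of each array from the mean of the 6 arrays (log2) for 4 member genes on the left and for the mean over 5 marker lists on the right, with WT and EKO tumours on either side of the vertical line. The 4 genes drawn are the members lowest in EKO replicate 1, so their match there to the sebocyte list follows from the choice. Of the members not drawn, Slc27a1, Slc27a2 and Acsl4 are lowest in EKO replicate 3 and Acsl3 in WT replicate 1. The sebocyte list is lowest in EKO replicate 1, as is the basal keratinocyte list by a small margin. Further marker lists are given in the text only.

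Markers of other cell types shared some of these features. WT replicate 1 was also highest in the lists of macrophages, adipocytes, capillary endothelium and skeletal muscle. EKO replicate 1 was also lowest in the list of basal keratinocytes and, barely, in that of dissociation stress (9.127 against 9.129 in WT replicate 3). Adipocyte markers, 10 of 12 measured with 8 lower by their means, ran from 7.24 to 8.29 in WT and from 7.49 to 7.77 in EKO tumours as a mean over the list, with WT replicate 2 lowest. Macrophage and monocyte markers, 12 of 13 lower, ran from 7.39 to 7.81 in WT and from 7.02 to 7.49 in EKO tumours, with EKO replicate 2 lowest. Capillary endothelial markers, 7 of 11 lower, ran from 6.84 to 7.35 and from 6.88 to 7.09. Skeletal muscle markers, all 12 lower, ran from 6.24 to 9.45 and from 6.29 to 7.45. Fibroblast markers, 7 of 10 lower, ran from 9.81 to 10.55 and from 9.82 to 10.43. Platelet markers, 4 of 6 lower, ran from 5.68 to 6.08 and from 5.59 to 6.04, and Ppbp was under the lower quartile of all arrays, which was true of no other marker in these lists. Genes of dissociation stress, 10 of 12 lower, ran from 9.13 to 10.21 and from 9.13 to 9.50. Here WT replicate 2 held the 10.21, while WT replicates 1 (9.27) and 3 (9.13) lay within the EKO range. In each of these lists 0 markers passed over all genes by limma. An unadjusted p under 0.05 was reached on the lower side by 5 macrophage, 2 endothelial and 1 fibroblast markers and on the higher side by 1 endothelial marker, against 3.7% and 3.44% of all genes. In 4 macrophage markers, Mrc1 (-1.04), C1qa (-0.59), C1qb (-0.67) and C1qc (-0.65), all EKO values lay below all WT values, against 6.19% of all genes. Other macrophage markers differed little, such as Cd68 (-0.03) and Csf1r (-0.13), and Cd14 was at 0.46. The EKO values also lay below all WT values in 2 of 11 endothelial markers, Cldn5 (-0.68) and Tek (-0.35). In Kdr (0.42), another endothelial marker, they lay above, against 1051 of all 18193 genes. The markers named here were chosen after their values were seen. The part of these cell types in the member values was not tested. The 3' minus 5' difference of the Gapdh control, which grows as RNA breaks down, was 0.88, 0.86 and 0.77 in WT and 1.35, 1.21 and 0.72 in the EKO tumours. That of Actb ran from 1.46 to 1.79 in WT and from 1.58 to 1.75 in EKO tumours.

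The other genes around these steps were read from 4 lists, and by limma 0 of their 62 measured genes passed over all genes. By unadjusted p under 0.05, 2 were lower, Acss1 and Acot13, and 2 higher, Mfsd2a and Lrp8, shares close to the 3.7% and 3.44% of all genes. Of the other acyl-CoA synthetases 13 of 15 were measured, 7 with a lower and 6 with a higher mean and a median difference of -0.01. Acss1, the mitochondrial acetyl-CoA synthetase, averaged 6.30 ± 0.0754 in WT against 5.82 ± 0.305 in EKO tumours (SD, n = 3 each), without overlap (difference -0.48, SE 0.155, limma adjusted p = 0.625). It was -0.19 as a mean over its probe sets and -0.32 without EKO replicate 3. Acsm3, a medium-chain synthetase, was at -0.31 and Aacs, the acetoacetyl-CoA synthetase, at -0.20. Acsm3 was at -0.18 without WT replicate 3 and -0.13 without EKO replicate 3, and Aacs at -0.10 without EKO replicate 1 and -0.32 without EKO replicate 2. Of this list, Acsl6, Acsm1, Acsm5 and Slc27a5 were under the lower quartile of every array.

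Of the 15 other carriers of fatty acids and acyl-CoA, all measured, 10 had a lower and 5 a higher mean, with a median of -0.04. Acbd6, an acyl-CoA binding protein, was at -0.46, and its values of 8.54, 9.31 and 8.72 in EKO tumours 1, 2 and 3 again had replicate 1 lowest and replicate 2 within the WT range of 9.12 to 9.61. Fabp4, the adipocyte carrier, was at 0.70, but at 0.32 without EKO replicate 3 and 1.15 without EKO replicate 2, and Fabp2, the intestinal carrier, at 0.29 while below the lower quartile in every array. Without EKO replicate 1 Acbd6 was at -0.30 and Fabp2 at 0.16, and without EKO replicate 2 Fabp2 was at 0.52.

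Acyl-CoA thioesterases, which undo the activation, had a lower mean for 11 of 15 measured genes and a median of -0.04. In 5 of the 15 all EKO values lay below all WT values, against 6.19% of all genes, with small differences. The 3 with the smallest p were Acot13 (9.45 ± 0.107 in WT and 9.15 ± 0.0372 in EKO tumours, difference -0.30, limma adjusted p = 0.621), Acot11 (-0.15) and Baat, the bile acid transferase (-0.13). As a mean over their probe sets Acot11 was at -0.0037 and Baat at -0.04. Acot11 was at -0.10 without EKO replicate 3 and Baat at -0.08 without WT replicate 3.

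Genes of lipoprotein lipolysis and lipid uptake receptors, 19 of 22 measured, had a lower mean for 11 and a higher mean for 8, with a median of -0.03. The smallest p on this list belonged to genes with higher EKO means. Mfsd2a, a carrier of lysophospholipids, read 7.78, 8.06 and 8.03 in WT and 8.31, 8.38 and 8.22 in the EKO tumours, without overlap (difference 0.35, SE 0.107, limma adjusted p = 0.625). Lrp8, a receptor of the LDL receptor family, was at 0.45 without overlap, or 0.29 without EKO replicate 3, and Lipg, the endothelial lipase, at -0.29 with overlap. All EKO values lay above all WT values in 2 of the 19 measured genes, Mfsd2a and Lrp8, against 1051 of all 18193 genes. Some genes of these lists, such as Fabp4, Gpihbp1 and Cd68, also stand among the cell type markers.

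**Figure D5:**
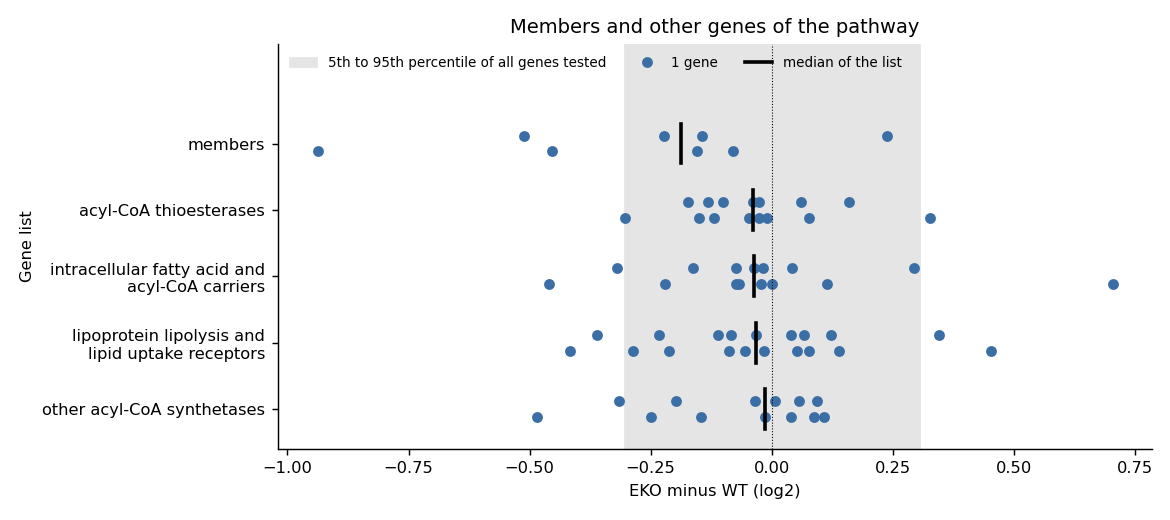
EKO minus WT difference (log2) of the 8 measured members and of each gene in the 4 other lists, 1 point per gene, with black bars for the list medians and a grey band from the 5th to the 95th percentile of all 18193 genes (-0.30 to 0.31). The member median lies at -0.19 and the other medians between -0.04 and -0.01. Left of the band lie the members Cd36, Slc27a3 and Acsl5 and, of the other lists, Acss1, Acsm3, Acbd6, Fabp7, Scarb1 and Lpl. Fabp4, Them5, Mfsd2a and Lrp8 of the other lists lie right of it.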

How the data were processed

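The deposited values are on the log2 scale, and the submitters' processing notes name RMA and Partek 6.6. RMA subtracts a modelled background, gives all arrays 1 common distribution and combines the probes of each probe set, which narrows differences near the floor. Of 45101 probe sets, 64 controls were left out, and 34945 carried 1 gene symbol in the platform annotation, 932 several and 9160 none here. The brightest probe set by mean stood for each of 18193 genes, and no filter on low values was set, since the values come without detection calls. Titles gave the groups and call the replicates biological. The genotypes were compared with limma 3.58.1 under R 4.3.3 (lmFit, eBayes, two-sided). P-values were adjusted by Benjamini and Hochberg's method over all genes, with a threshold of 0.05, after a test on simulated data. The 3 arrays per group limit the precision, and no scan batch is named in the sources used here. The alternatives were a replicate block, the upper 50% of genes by mean, repeated quantile normalization, centred medians, a variance trend with robust variances, array weights, means over probe sets, all probe sets, each array left out and a threshold of 0.1. All members were described, with the 3 genes of smallest p per further pathway list and marker lists by counts and means. Members and lists were chosen with earlier results of these data known.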

Additional observations from a re-analysis of the deposited data

How the results depend on the processing

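When every probe set was tested, 2 probe sets passed the threshold, both of them of Fabp5. The number of genes past the threshold was 1 with all 6 arrays and 1 to 42 with 1 array left out. It was 42 without EKO replicate 2 and 2 without WT replicate 2. The number of members past the threshold was 0 under all alternatives run. Their median difference ran from -0.32 to -0.16, and from 6 to 8 of 8 members had a lower mean with 1 array left out. With 1 array left out, 2 to 4 members had all EKO values below all WT values, against 6.19% of all genes with 6 arrays and 9.06% to 13.8% with 5. The difference of Slc27a4 turned to 0.135 without EKO replicate 1 and ran from -0.41 to 0.135 with 1 array left out. That of Acsl3 turned to -0.00597 without WT replicate 1 and ran from -0.00597 to 0.59. The other members kept their direction under every alternative run. With the replicate number as a block the count of genes past the threshold stayed at 1. Same-numbered WT and EKO tumours deviated from their group means with r of -0.07, -0.09 and -0.34 across genes. The labels do not say whether the numbers pair the tumours, and with 3 arrays per group these r cannot decide it. The number of arrays, and for Slc27a2 a signal near the floor, limit what could be seen.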
